A study of Mus musculus with 16 samples.

Results

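The nuclear genes for subunits of respiratory chain complexes I to IV were followed over 8 pools of RNA from the right neocortex (rostral from bregma) of C57BL/6J mice. A gene was a member when its symbol started with Nduf followed by a, b, c, s or v and a number, with Uqcr, or with Cox and a number from 4 to 8, or was Sdha, Sdhb, Sdhc or Sdhd. This gave 67 of the 20145 genes named on the array, and 42 of the 67 had a probe that was unsaturated on all arrays. The control pools came from unoperated mice at postnatal days 7 (P7), 14 (P14) and 35 (P35) and at 10 weeks (10W). Mice of the NBH pools (NBI in the sample labels) had lost an area of the left cortex, including the sensorimotor cortex, by suction at P7. They were sampled 1 week later at P14 (NBH 1W) or 4 weeks later at P35 (NBH 4W). Mice of the ABH pools (ABI in the labels) were operated on as adults, at 8 to 12 weeks, and were sampled after 1 week (ABH 1W, labelled 11 weeks) or 4 weeks (ABH 4W, labelled 15 weeks). The tissue was therefore the hemisphere opposite the lesion. By the paper's account the aspirated area reached further from bregma in adults than at P7, so lesion extent and age at surgery cannot be told apart. Both ABH pools are compared with the 10W control, which is younger, so age and surgery cannot be told apart there.

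Each pool held RNA of 4 male mice and was labelled once with Cy3 and once with Cy5, on 16 arrays with 1 labelled channel each. Each dye had its own slide, so dye and slide cannot be told apart. There was 1 pool per group, so the difference between dyes is a technical error, the spread between mice is unknown, and no test was possible. A level is the log2 background-corrected signal minus the 75th percentile of its array, and it is compared only within 1 probe. A difference is pool minus pool within a dye, averaged over the dyes. A gene is called higher at 1.5-fold or more with both dyes (log2 of 0.58) and lower at 0.75-fold or less with both dyes (log2 of -0.42), the fold limits of the study's methods. In a bulk pool, fewer cells of a type and less RNA per cell cannot be told apart.

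The respiratory chain passes electrons from NADH and succinate to oxygen across the inner mitochondrial membrane. Complex I (the Nduf genes) takes them from NADH, complex II (the Sdh genes) takes them from succinate and is also an enzyme of the citrate cycle, complex III (the Uqcr genes) hands them to cytochrome c, and complex IV (the Cox genes) reduces oxygen. Complexes I, III and IV pump protons, and the gradient drives ATP synthase, on which neurons depend for ion pumping and synaptic transmission. Several complex IV subunits exist as a general form and as a form restricted to certain tissues, such as heart and skeletal muscle (Cox6a2, Cox7a1, Cox8b), lung (Cox4i2) or testis (Cox6b2, Cox7b2, Cox8c).

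Calls were made for 3 muscle-type isoforms and 1 general subunit of complex IV. Cox8b, Cox6a2 and Cox7a1 rose from P7 to P14, and Cox8b rose again from P14 to P35, while Cox6a2 and Cox6b1 fell over that second step. After surgery, Cox8b was higher in ABH 4W. Among the 40 members well above background on all arrays, the mean level moved over the 8 pools by a median of 0.36 log2 units, and 29 of the 40 (72.5%) stayed within a range of 0.5. Over the 14087 genes well above background on all arrays the median range was 0.63, and 34.8% stayed within 0.5. These sets were not matched for brightness. Of the measured members 18 came within 1 log2 unit of the saturation ceiling, which limits how far they could rise. A wide range did not always come with a call: Ndufb2 (0.92), Cox4i2 (0.74), Sdhd (0.725) and Ndufa4 (0.65) ranged over the pools at least as far as Cox6b1 (0.64) and were not called.

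For P14 minus P7, 3 of 41 members tested were called higher and none lower, beside 8.53% and 15.4% of the 15085 genes tested. The median over the members measured in both pools was 0.08, against -0.03 over all genes, and 77.5% of these members lay within 0.25 of 0, against 43.3% of all genes. For P35 minus P14, 1 member was called higher and 2 lower, beside 2.42% and 6.17% of genes. The medians were -0.02 and -0.03. For 10W minus P35 no member was called, beside 1.82% and 0.831% of genes, and 40 of 41 members lay within 0.25. Adjacent steps share a pool.

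In NBH 1W no member was called, beside 0.524% of genes called higher and 0.424% called lower, and in NBH 4W none, beside 0.213% and 0.761%. Their member medians were 0.04 and 0.05, with 0.06 and 0.04 over all genes. In ABH 1W no member was called, although 4.81% of genes were called higher and 5.91% lower, and the medians were 0.01 and -0.04. In ABH 1W 39 of 41 members lay within 0.25, and 34 of the 34 outside the tissue-restricted isoforms, beside 70.2% of all genes. In ABH 4W Cox8b alone was called, beside 0.44% higher and 0.207% lower. The 0 of 41 members called in ABH 1W lay below both shares over all genes, which was not tested. The other counts are too small to separate the members from the genes at large.

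**Figure D1:**
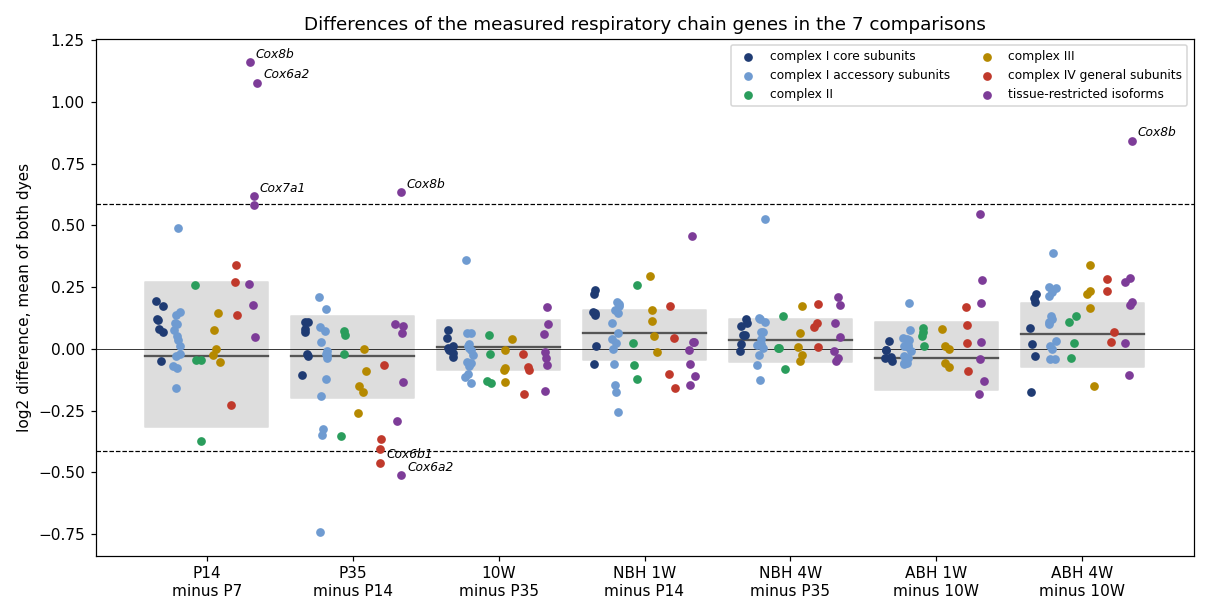
Log2 difference (mean of both dyes) of each member in the 7 comparisons, coloured by subunit group; dashed lines mark 1.5-fold and 0.75-fold, grey boxes the middle 50% of all genes measured in both pools and dark lines their median. Called members carry their names: Cox8b reached 0.84 in ABH 4W, and the P7 to P14 value of Cox8b is a lower bound.

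How bright these genes were limited what could be measured. All probes were saturated on some array for 25 of the 67 members (37.3%), against 1.87% of the genes named on the array. All 7 members of the complex I core had a usable probe, as did all 4 of complex II and all 8 tissue-restricted isoforms. The shares were 14 of 28 for the accessory subunits of complex I, 5 of 8 for complex III and 4 of 12 for the general subunits of complex IV. Some of these 14 were read through a dim probe, at least 5.84 log2 units below the ceiling, because their brighter probe was saturated on 4 or 5 arrays. They count as measured throughout, and whether a dim probe follows the bright one was not tested.

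Cox4i1, Cox5a, Cox5b, Cox6a1, Cox6c, Cox8a, Ndufa13 and Ndufb9 were saturated on all 16 arrays, so the general partners of 3 isoforms (Cox4i2, Cox6a2 and Cox8b) could not be followed. Cox7b, the general partner of Cox7b2, was saturated as well, as were Ndufa3, Ndufb8, Ndufb10, Ndufc2 and Uqcr11, on at least 1 array with each dye. The other 11 (Cox7a2, Ndufa1, Ndufa2, Ndufa7, Ndufa12, Ndufb7, Ndufc1, Ndufs5, Ndufs6, Uqcrh and Uqcrq) had a probe unsaturated on the Cy3 arrays. With Cy3 alone, the median over these 11 was 0.15 for P14 minus P7, -0.26 for P35 minus P14 and between -0.04 and 0.26 in the other 5 comparisons. Cox7a2, the general partner of Cox7a1, was the one of the 11 past a limit, at -0.46 for P35 minus P14.

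**Figure D2:**
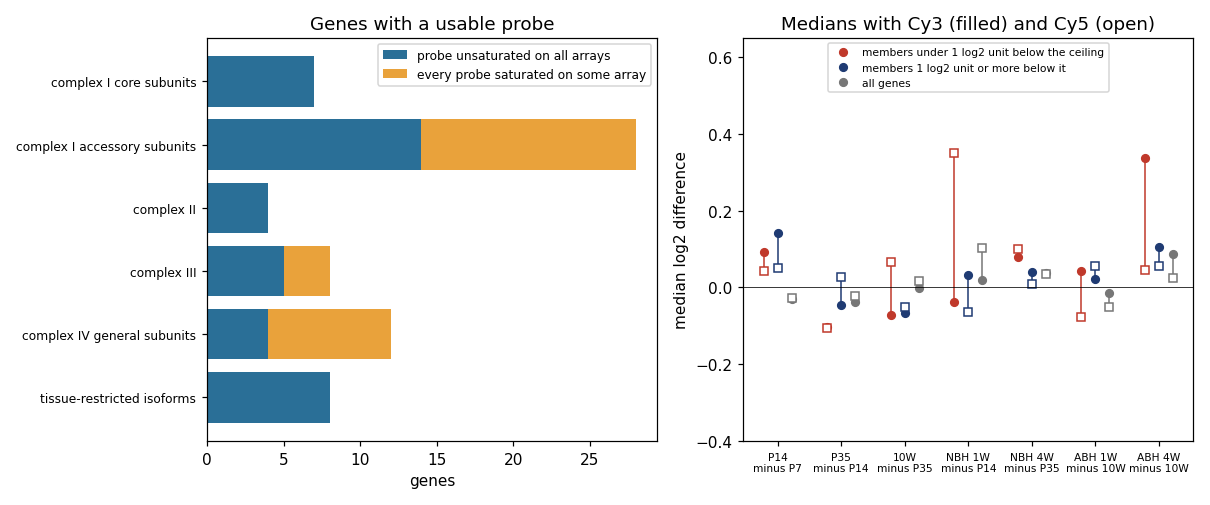
Left, number of members per subunit group with a probe unsaturated on all arrays (blue) or without one (orange). Right, median log2 difference with Cy3 (filled circles) and Cy5 (open squares) for members that came within 1 log2 unit of the saturation ceiling, for the other members and for all genes; in NBH 1W the medians of the bright members were -0.04 with Cy3 and 0.35 with Cy5.

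The complex I core subunits, which carry the flavin and iron-sulfur centres outside the membrane, stayed close to their controls. All 7 lay within 0.25 log2 units in each of the 7 comparisons. Their median difference was 0.12 for P14 minus P7, 0.07 for P35 minus P14 and 0.00 for 10W minus P35, and after surgery 0.15 in NBH 1W, 0.06 in NBH 4W, -0.03 in ABH 1W and 0.09 in ABH 4W. The NBH 1W value rested on Cy5, with medians of -0.03 for Cy3 and 0.32 for Cy5.

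Of the 14 measured accessory subunits of complex I, which surround the core and take no part in electron transfer, none was called in any comparison. Ndufa8 was 0.49 higher at P14 than at P7 (0.51 with Cy3, 0.47 with Cy5), below the limit. In NBH 1W the same gene lay at -0.26 (-0.41 and -0.11), the lowest member of that comparison. Ndufb6 lay at -0.32 (-0.35 and -0.30) for P35 minus P14.

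Ndufb2 had the lowest difference of all members in any comparison, -0.74 for P35 minus P14, but the dyes disagreed. Its levels with Cy3 and Cy5 were 5.08 and 5.22 at P7, 4.89 and 5.09 at P14, 3.65 and 4.85 at P35, 4.49 and 4.73 at 10W, 4.84 and 5.49 in NBH 1W, 4.59 and 4.95 in NBH 4W, 4.55 and 4.70 in ABH 1W and 4.97 and 5.02 in ABH 4W. The Cy3 array of P35 stood below the other 15. With Cy5 alone the differences that use P35 were -0.24 for P35 minus P14, -0.12 for 10W minus P35 and 0.11 for NBH 4W minus P35, against -1.24, 0.84 and 0.94 with Cy3.

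Complex II had all 4 subunits measured and none called. Sdhd, one of the membrane anchors, showed the clearest course with age: its levels with Cy3 and Cy5 were 5.08 and 5.0 at P7, 4.73 and 4.6 at P14, 4.41 and 4.23 at P35 and 4.43 and 4.32 at 10W. Both arrays were highest at P7 and lowest at P35 among the controls, and both steps lay short of the limit, at -0.37 ± 0.03 (SD of the 2 dyes) for P14 minus P7 and -0.35 ± 0.04 for P35 minus P14. The first step was called lower with median scaling (-0.51) and for the deposited values without scaling (-0.58). In the surgery pools the levels were 4.85 and 5.0 in NBH 1W, 4.54 and 4.36 in NBH 4W, 4.47 and 4.41 in ABH 1W and 4.71 and 4.26 in ABH 4W, so that NBH 1W lay above the P14 control with both dyes, by 0.26 (0.12 and 0.40).

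Sdha, the flavoprotein that oxidises succinate, went the other way from P7 to P14, by 0.26 (0.19 and 0.33). Sdhb, the iron-sulfur subunit, and Sdhc, the other anchor, lay at -0.05 and -0.04 for that step. After surgery Sdha, Sdhb and Sdhc lay between -0.12 and 0.13. A second Sdhc probe of nearly the same brightness lay at 0.33 (0.36 and 0.29) in ABH 4W, where the probe used gave -0.04 (0.06 and -0.14), so Sdhc has no settled direction there. The 4 subunits form a single complex and are measured with different probes, so their levels are not set against each other here.

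In complex III, 5 of 8 members were measured and none was called. Uqcrb, a small subunit without a redox centre, lay at -0.18 for P35 minus P14 and at 0.29 (0.06 and 0.53) in NBH 1W and 0.34 (0.57 and 0.10) in ABH 4W, values carried by 1 dye each. Its other 2 probes gave 0.33 and -0.06 in NBH 1W and 0.22 and 0.19 in ABH 4W, so the direction in NBH 1W differed between probes. Uqcrc1, a core protein of the complex on its matrix side, lay at -0.15 (-0.29 and 0.00) in ABH 4W and was among the 3 lowest members there. The medians of complex III over the 7 comparisons ran from -0.15 for P35 minus P14 to 0.22 in ABH 4W.

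In the group of general subunits of complex IV, to which Cox7a2l was assigned here, all 4 measured members lay below 0 with both dyes for P35 minus P14. Their median was -0.39 (-0.38 with Cy3, -0.40 with Cy5), while the median over all genes was -0.03. Cox6b1, which joins the monomers of complex IV on the intermembrane side, was the one that passed the limit, at -0.46 ± 0.01 (0.73-fold). Its levels with Cy3 and Cy5 were 3.85 and 3.79 at P7, 4.18 and 4.00 at P14, 3.73 and 3.53 at P35, 3.49 and 3.41 at 10W, 4.05 and 3.81 in NBH 1W, 3.82 and 3.62 in NBH 4W, 3.59 and 3.51 in ABH 1W and 3.64 and 3.40 in ABH 4W. With each dye P14 was the highest pool.

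The call for Cox6b1 did not hold under 3 of 12 other settings (median scaling, quantile normalization and the deposited values without scaling), with values from -0.47 to -0.30, and neither Cox6b1 nor Cox6a2 passed a lower limit of 1 over 1.5 for this step. Ndufa4, once counted to complex I and now to complex IV, lay at -0.37 (-0.39 and -0.35) over the same step, close to the limit. The third member with this course was Cox7c, named here after its values were seen, at -0.41 (-0.37 and -0.45), and its other 2 probes gave -0.22 and -0.33. Cox7a2l did not share this course, at -0.07 (-0.12 and -0.01) for P35 minus P14 and at -0.23 for P14 minus P7.

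The tissue-restricted isoforms held all calls but that of Cox6b1. Cox8b, the muscle form of a small membrane subunit, was called in 3 comparisons. Its levels with Cy3 and Cy5 were -3.63 and -3.91 at P7, -2.49 and -2.72 at P14, -1.84 and -2.10 at P35, -1.78 and -1.97 at 10W, -2.06 and -2.24 in NBH 1W, -1.60 and -1.92 in NBH 4W, -1.81 and -1.88 in ABH 1W and -0.92 and -1.14 in ABH 4W. The level was higher at each later control age and was highest in ABH 4W with both dyes; at P7 the probe was not well above background, on either array.

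From P7 to P14 Cox8b therefore rose at least 2.23-fold under the main scaling. This bound is taken against the higher of its own P7 signal and the lowest signal well above background on that array. Its own P7 signal was the higher one with both dyes. From P14 to P35 it rose by 0.63 ± 0.02 (1.55-fold), and for 10W minus P35 the value was 0.10. With processed signals the 2 steps were larger, at 1.90 and 1.04, and for the deposited values without scaling they were 1.71 and 1.197. With median scaling and with quantile normalization the first step was smaller, at 1.03 in both. In ABH 4W it was 0.84 ± 0.02 higher than at 10W (1.79-fold), against 0.03 (-0.03 and 0.09) in ABH 1W. In NBH 1W it lay at 0.46 (0.43 and 0.48) and in NBH 4W at 0.21 (0.24 and 0.18), both below the limit. These 4 values come from 3 control pools, and both ABH comparisons use the 10W pool.

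Cox6a2, the muscle form of a regulatory subunit, was called in both directions. Its levels with Cy3 and Cy5 were 1.95 and 1.96 at P7, 3.07 and 3.0 at P14, 2.55 and 2.50 at P35, 2.41 and 2.29 at 10W, 2.97 and 3.09 in NBH 1W, 2.60 and 2.66 in NBH 4W, 2.29 and 2.34 in ABH 1W and 2.66 and 2.59 in ABH 4W. The P14 pools, operated or not, were the highest and P7 the lowest. It rose by 1.08 ± 0.05 (2.11-fold) from P7 to P14 and fell by 0.51 ± 0.01 on the log2 scale (0.70-fold) from P14 to P35. The second call did not hold for the deposited values without scaling (-0.32). After surgery the values lay between -0.04 and 0.27.

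Cox7a1, the muscle form of another small subunit, had levels with Cy3 and Cy5 of 0.21 and -0.03 at P7, 0.82 and 0.59 at P14, 0.80 and 0.74 at P35, 0.71 and 0.80 at 10W, 0.57 and 0.55 in NBH 1W, 0.75 and 0.70 in NBH 4W, 1.36 and 1.25 in ABH 1W and 1.11 and 0.98 in ABH 4W. The P7 arrays were below all others and the 4 ABH arrays above all others. It rose by 0.62 ± 0.01 (1.53-fold) from P7 to P14, a call lost with median scaling and for the deposited values without scaling. In ABH 1W it lay 0.55 ± 0.14 above 10W (0.64 with Cy3 and 0.45 with Cy5), past the limit with Cy3 alone, and in ABH 4W 0.29 (0.40 and 0.18). The NBH values were -0.15 and -0.05.

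**Figure D3:**
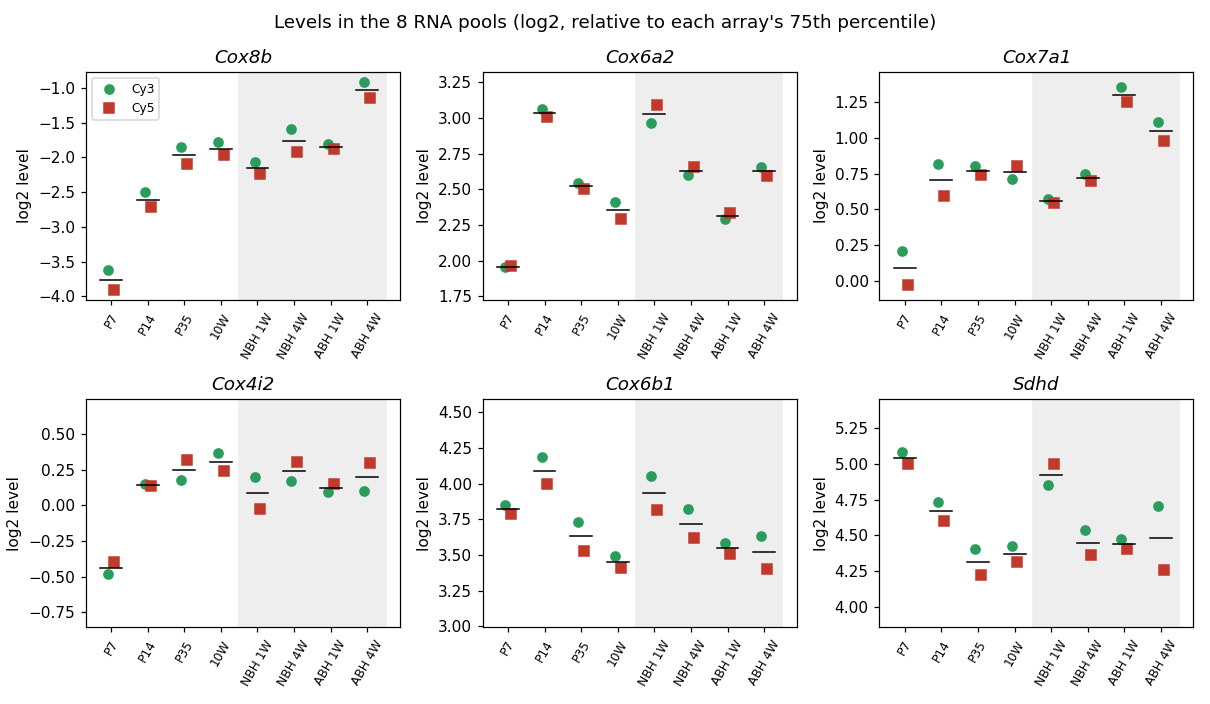
Log2 level relative to the 75th percentile of the array, with Cy3 (green circles) and Cy5 (red squares), in the 4 control pools and the 4 surgery pools (grey area), for 6 members; black lines are the means of both dyes and each panel has its own axis. Cox8b was higher at each later control age and highest in ABH 4W, and Cox6a2 was highest at P14 and in NBH 1W.

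Cox4i2, the lung form of the subunit that Cox4i1 encodes elsewhere, lay at 0.58 ± 0.07 for P14 minus P7 (0.63 with Cy3 and 0.53 with Cy5) and so passed the limit with Cy3 alone. It was called with processed signals (0.64). Its levels were -0.48 and -0.39 at P7 and between -0.03 and 0.37 on the other 14 arrays. Cox6b2, the testis partner of Cox6b1, lay at 0.28 (0.23 and 0.33) in ABH 1W, and its 7 differences ran from -0.13 to 0.28. Cox7b2 was well above background on all arrays at a low level, and its differences ran from -0.13 to 0.18. Cox8c, a testis form, was not well above background on any array and entered no comparison. Ndufa4l2, a relative of Ndufa4 that low oxygen induces, lay at -0.29 (-0.43 and -0.16) for P35 minus P14 and at 0.19 in both ABH comparisons, which share their control.

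**Figure D4:**
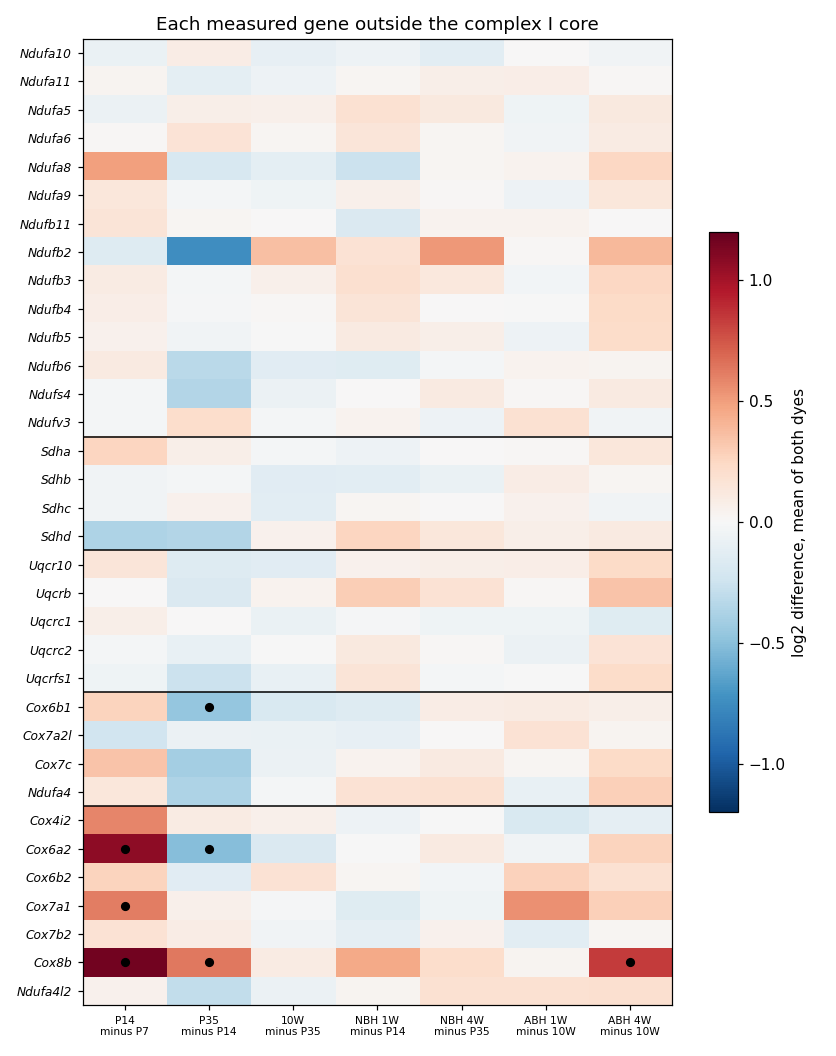
Log2 difference (mean of both dyes) of the 34 members tested outside the complex I core, one row per gene in the order of the subunit groups (complex I accessory, II, III, IV general, tissue-restricted), one column per comparison; black dots mark called members. Cox8b was called in 3 of the 7 columns, Cox6a2 in 2, and Cox7a1 and Cox6b1 in 1 each.

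In ABH 4W 34 of 41 members lay above 0, and 24 above 0 with both dyes, where 61.6% of all genes lay above 0; the medians were 0.13 and 0.06. The member median was 0.22 with Cy3 and 0.05 with Cy5. It also went with brightness: the 18 members that came within 1 log2 unit of the ceiling had a median of 0.21 and all lay above 0, while the other 23 had 0.03 with 16 above 0. In NBH 1W the 18 bright members had a median of 0.16 (-0.04 with Cy3, 0.35 with Cy5) and the others -0.01. The part that brightness and the single arrays took in these medians was not tested.

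The dyes ran together most closely in the first control steps. Across the members measured in both pools, the Cy3 and Cy5 differences correlated with r of 0.85 (40 genes) for P14 minus P7 and 0.76 (41 genes) for P35 minus P14, and with r of -0.12 for 10W minus P35, 0.18 in NBH 1W, 0.20 in NBH 4W, 0.48 in ABH 1W and 0.38 in ABH 4W. These are descriptions across genes of the same 2 pools, and genes are not independent replicates.

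**Figure D5:**
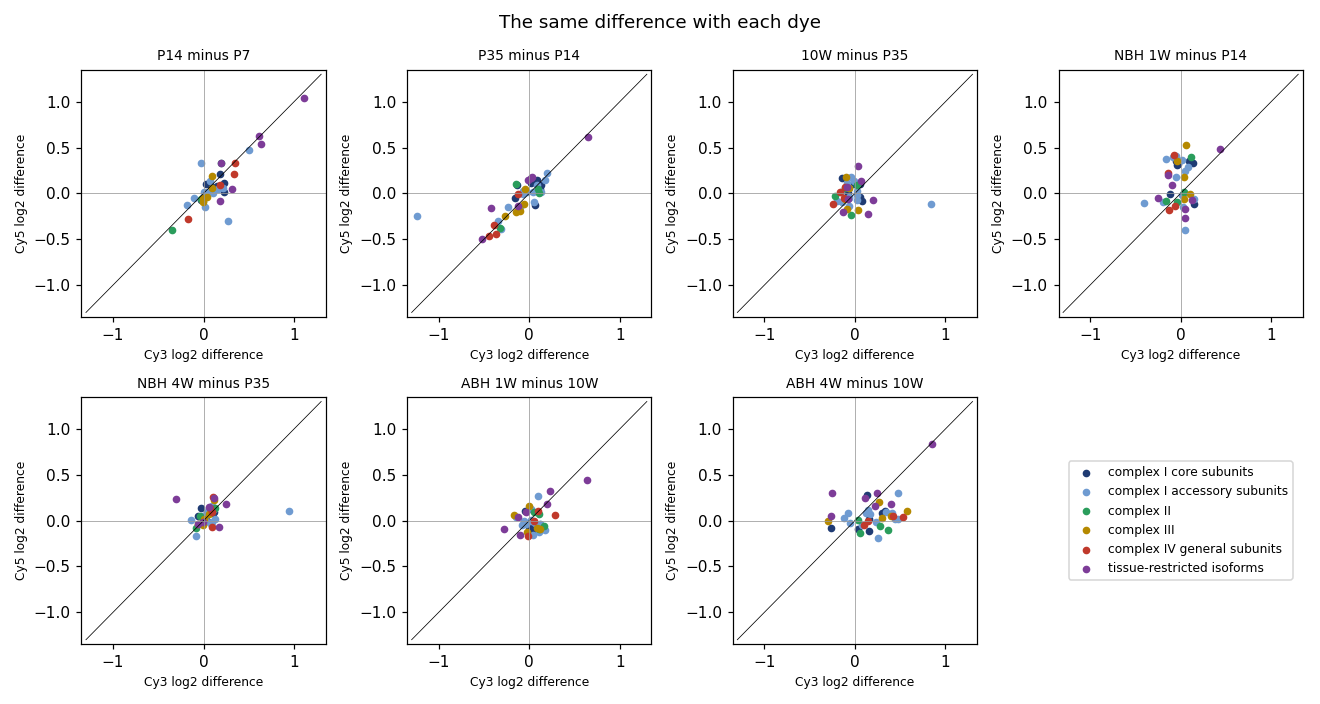
Log2 difference of each member with Cy3 (x axis) and with Cy5 (y axis) in the 7 comparisons, coloured by subunit group, with the line of equal values. Members lie along the line for P14 minus P7 (r of 0.85) and around 0 for 10W minus P35 (r of -0.12), where Ndufb2 stands apart with Cy3.

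All 6 measured neuron markers were well above background in each of the 8 pools, as the tissue label asks. Cell type markers moved with several of the changes, and also where no member was called. For 10W minus P35, 5 of 7 oligodendrocyte markers were called lower (median -0.74) and no member was. From P7 to P14, when Cox6a2, Cox7a1 and Cox8b rose, 5 of 6 measured neuron markers, 4 of 4 markers of parvalbumin interneurons, 5 of 7 oligodendrocyte markers, 4 of 7 markers of microglia and macrophages, 2 of 7 of astrocytes and 2 of 6 of endothelium were called higher, and 3 of 3 markers of immature neurons lower. The summed linear level of the parvalbumin interneuron list, in units of the 75th percentile, went from 3.40 (Cy3) and 3.32 (Cy5) at P7 to 16.9 with both dyes at P14, and Syt2 was not above background at P7. At P35 it was 30.1 and 32.0.

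Of the 8 choroid plexus markers, 6 were called higher in NBH 1W, 3 in NBH 4W and 7 in ABH 4W, the pools in which Cox8b lay at 0.46, 0.21 and 0.84. Their summed level was between 1.81 and 2.86 in the 4 controls, 40.0 and 40.7 in NBH 1W, 19.5 and 18.9 in NBH 4W, 32.1 and 30.6 in ABH 4W and 2.05 with both dyes in ABH 1W, where Cox8b lay at 0.03. Kcne2 was not above background at P14, P35, 10W and in ABH 1W. Over the control steps in which Cox8b rose, these markers did not rise as a list. Of 6 tested for P14 minus P7, 1 was called higher and 2 lower, and of 7 tested for P35 minus P14, 0 higher and 1 lower. In ABH 1W, where Cox7a1 lay at 0.55, 6 of 7 markers of microglia and macrophages were called higher, with a summed level of 109 and 105 against 41.9 and 41.8 at 10W; 4 of 8 markers of mural cells and 2 of 3 of immature neurons were called lower for P35 minus P14, when Cox6b1 and Cox6a2 fell, and 2 of 4 of parvalbumin interneurons higher. Other lists moved in ABH 1W as well. All 7 measured astrocyte markers lay above 0 with both dyes (median 0.46), with 1 called higher. The 1 measured blood marker was called higher (2.11), and of the choroid plexus markers 1 was called higher and 1 lower. In ABH 4W 6 of 7 measured astrocyte markers lay above 0 with both dyes, with 1 called higher. So did 6 of 7 markers of microglia and macrophages, with 0 called. The part of these cells in the members' values was not tested. The control pools lay in row 1 of each slide and the surgery pools in row 2, so slide position and surgery cannot be told apart.

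Other genes of the same pathways were described by counts. Of the 18 ATP synthase genes, 8 had an unsaturated probe and none was called in any comparison, with medians from -0.22 for P35 minus P14 to 0.15 in ABH 4W. None of the 14 measured citrate cycle genes or of 6 further carriers and subunits outside the symbol pattern (among them Cyc1 and Cycs) was called. Of 42 assembly factors, Cox17, a copper carrier to complex IV, was called higher for P14 minus P7 (0.79) and Ndufaf6 lower (-0.72), and Coa7 was called lower for P35 minus P14 (-0.49). Over all genes 8.53% were called higher and 15.4% lower for P14 minus P7, and 2.42% and 6.17% for P35 minus P14. For P14 minus P7, 1 higher and 1 lower of the 41 assembly factors tested lay below both shares, which was not tested. The other counts are too small to set a list apart from the genes at large.

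Of 77 mitochondrial ribosome genes tested for P14 minus P7, 5 were called lower (Mrpl33, Mrpl50, Mrpl52, Mrps6 and Mrps22, from -0.69 to -0.43), with a median of -0.17. This count lies below the 15.4% of all genes called lower. Of 57 cytosolic ribosome genes 26 were called lower over that step, with a median of -0.45. Among 15 regulators, Ppargc1b, a coactivator of mitochondrial genes, was called higher (0.73) and its relative Pprc1 lower (-0.94). Of 7 measured glycolysis genes of 16, Pfkl, the liver-type phosphofructokinase of glycolysis, was called higher (0.93). These single calls stand beside 8.53% of all genes called higher and 15.4% called lower over that step. In ABH 4W, where 34 of 41 members lay above 0, all 7 glycolysis genes lay below 0, 6 of them with both dyes, at a median of -0.30 (-0.32 with Cy3, -0.18 with Cy5) and with none called.

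Promoters from RefSeq (build GRCm38.p6) are shown for Cox8b and Cox7a1, which were called, for their general partners Cox8a and Cox7a2, and for Cox6b1, which fell, with Cox6a1 as a general subunit whose window holds 3 motifs. Each runs 5′ to 3′ on the strand of the gene from 200 bases before the start to 25 after it, with motifs in capitals. Cox4i2, Cox6a2 and Cox8c had no entry. The places are chr7:140900422-140900646 (minus strand) for Cox8b, chr19:7217592-7217816 (minus) for Cox8a, chr7:30183971-30184195 (plus) for Cox7a1, chr9:79759829-79760053 (minus) for Cox7a2, chr7:30626090-30626314 (minus) for Cox6b1 and chr5:115348934-115349158 (minus) for Cox6a1.
Cox8b: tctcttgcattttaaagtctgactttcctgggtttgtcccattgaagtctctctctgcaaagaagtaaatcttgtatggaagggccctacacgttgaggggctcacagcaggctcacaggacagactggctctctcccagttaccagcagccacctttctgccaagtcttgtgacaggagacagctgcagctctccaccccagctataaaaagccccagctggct
Cox8a: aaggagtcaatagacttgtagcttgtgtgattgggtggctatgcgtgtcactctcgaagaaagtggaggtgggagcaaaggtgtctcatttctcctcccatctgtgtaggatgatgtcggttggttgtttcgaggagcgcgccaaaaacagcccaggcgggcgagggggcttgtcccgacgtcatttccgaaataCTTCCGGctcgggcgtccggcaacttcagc
Cox7a1: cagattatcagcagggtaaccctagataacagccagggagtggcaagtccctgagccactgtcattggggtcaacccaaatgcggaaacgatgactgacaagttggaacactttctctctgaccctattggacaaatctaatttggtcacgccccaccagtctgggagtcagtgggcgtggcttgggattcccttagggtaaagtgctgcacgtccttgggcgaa
Cox7a2: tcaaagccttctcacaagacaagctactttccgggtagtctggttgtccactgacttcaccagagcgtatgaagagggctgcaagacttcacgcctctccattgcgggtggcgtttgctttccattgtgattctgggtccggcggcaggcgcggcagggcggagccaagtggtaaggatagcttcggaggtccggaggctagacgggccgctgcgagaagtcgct
Cox6b1: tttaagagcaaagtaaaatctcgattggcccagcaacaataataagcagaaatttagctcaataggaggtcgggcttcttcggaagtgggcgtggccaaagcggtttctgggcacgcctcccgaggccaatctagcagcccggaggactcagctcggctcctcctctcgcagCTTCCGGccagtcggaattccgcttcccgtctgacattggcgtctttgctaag
Cox6a1: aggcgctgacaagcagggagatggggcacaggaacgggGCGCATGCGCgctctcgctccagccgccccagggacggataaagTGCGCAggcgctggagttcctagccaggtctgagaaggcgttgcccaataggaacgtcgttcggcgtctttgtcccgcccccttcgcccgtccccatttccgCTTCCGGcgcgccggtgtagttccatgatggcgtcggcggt
The motifs searched on both strands were the palindromic NRF1 site, its core TGCGCA, the ETS site of GABP CCGGAAG, the YY1 site AAGATGGC and the ERR site TCAAGGTCA. Over windows of 300 bases (250 before the start to 50 after), at least 1 motif was present in 29 of 55 windows of 53 members (52.7%) and in 17.9% of the 32851 windows of all genes. The core TGCGCA was in 29.1% of member windows and 7.76% of all, CCGGAAG in 20.0% and 8.86%, AAGATGGC in 12.7% and 2.75%, the NRF1 site in 5.45% and 0.971% and TCAAGGTCA in 1.82% and 0.423%. The NRF1 site and the core overlapped in 1 member window. The member windows were also richer in G and C, with a median of 57.3% against 52.7%, and in CpG, with 19 against 7 a window.

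In the printed stretches the Cox6a1 promoter held the NRF1 site 162 bases before the start, the core 118 bases before it and the ETS site on the other strand 16 bases before it. The ETS site stood 28 bases before the start of Cox6b1 and 5 before that of Cox8a, both on the other strand. None of these letters was found in the stretches of Cox8b, Cox7a1 and Cox7a2. The Cox8b stretch had 1 CpG and that of Cox7a1 6, against 15 for Cox8a and 16 for Cox7a2. A match of letters is a description and was not measured as a binding site here.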

How the data were processed

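RNA of each pool was hybridised to Agilent mouse arrays (the 8×60K format, 8 arrays a slide, 2 slides), scanned and read by the authors with Agilent Feature Extraction 11.0.1.1 (submitters' processing notes); the deposited scanner files give the spot intensity of both channels, not normalized between arrays, and the deposited value table holds the software's processed intensity. The build in the file headers is mm9.

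The labelled channel of each array was used (gene spots 59305, probes 55681). Median signals were background-corrected with normexp (offset 50, limma 3.58.1 in R 4.3.3), log2-transformed and lowered by the array's 75th percentile; outlier spots were left out. Accessions were named through the RefSeq gene table (26582 probes with 1 gene). A gene's probe was the brightest one that was unsaturated on all arrays. A comparison took in genes that both arrays of either pool read as well above background. Between 60.2% and 72.2% of gene spots on an array were well above background, and between 0.988% and 2.05% were saturated; the number of arrays limits the precision. The members and lists were chosen with earlier results of these data known. Named were called members, the 3 highest and 3 lowest members of each comparison, complex II, the isoform pairs and members without an unsaturated probe. One gene that this rule names is not reported here. The calling rule was tested on simulated data. Alternatives were other scalings and background corrections, limits, probes, control pools and each dye alone.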

Additional observations from a re-analysis of the deposited data

Results flagged for a closer look

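For 9 members at 1 week and 3 at 4 weeks the NBH pool and the ABH pool differed from their controls in opposite directions with both dyes. Of all genes measured in the same pools, 17.3% at 1 week and 17.4% at 4 weeks did so, beside 9 of 41 and 3 of 41 members, so these counts do not set the members apart. The difference between the surgeries was not tested, each side rests on 1 pool, and no cause was tested. As ABH difference minus NBH difference, Cox7a1 was at 0.69 at 1 week (0.55 in ABH, -0.15 in NBH) and at 0.34 at 4 weeks. At 1 week Cox7a2l was at 0.27, Cox6b1 at 0.26 and Sdhb at 0.21. Lower in ABH than in NBH at 1 week were Ndufs1 at -0.28, Ndufv1 at -0.26, Ndufb3 at -0.22, Uqcrc2 at -0.19 and Ndufa6 at -0.18. At 4 weeks Uqcrfs1 was at 0.25 and Sdhb at 0.11. Single effects in this set were as small as 0.02 log2 units.

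In the unlabelled channel, which holds no RNA, 2 of 42 members read above background on the Cy5 array of NBH 4W, and at most 1 on any other array.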

How the results depend on the processing

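No paired analysis was possible because each group is 1 pool, the labels pair no samples and the results come from no test. All 7 member calls kept their direction under each alternative. Cox8b (at P35 and in ABH 4W) and the P14 calls of Cox6a2 and Cox8b held throughout, and Cox8b was largest with processed signals for P14 minus P7 (1.90) and with the deposited values without scaling for P35 minus P14 (1.197). Processed signals called 4 members higher for P14 minus P7, with Cox4i2 added. Median scaling called 1 member (Sdhd) lower for P14 minus P7, 1 for P35 minus P14 and 1 higher (Cox7a1) in ABH 1W; it moved the median of all genes to -0.16 for P14 minus P7, -0.23 for 10W minus P35 and 0.22 in ABH 1W. Quantile normalization called 1 lower for P35 minus P14; symmetric limits (1 over 1.5) and the deposited values without scaling called 0 there, and those values called 1 lower (Sdhd) for P14 minus P7 and moved the median of all genes to -0.24 for that step. Over all genes, the lower share of the called genes was 64.3% for P14 minus P7, 71.8% for P35 minus P14, 31.4% for 10W minus P35, 44.8% in NBH 1W, 78.1% in NBH 4W, 55.1% in ABH 1W and 32.0% in ABH 4W; it reached 79.3%, 62.6%, 94.2%, 71.8%, 90.2%, 15.8% and 46.7% in that order with median scaling, 63.5%, 67.5%, 80.3%, 68.2%, 88.1%, 28.5% and 43.4% with quantile normalization and 81.8%, 37.8%, 42.9%, 82.9%, 98.05%, 54.6% and 90.6% with the deposited values.

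Leaving out 1 dye gave 3 to 4 members higher and none lower for P14 minus P7, and for P35 minus P14 1 higher and 3 to 4 lower; 0 to 1 were called higher for 10W minus P35, in NBH 4W and in ABH 1W, each with Cy3 alone (Ndufb2 in the first and second, Cox7a1 in the third). With Cy3 alone and probes unsaturated on those arrays, chosen after seeing the data like the next 2 settings, 4 were higher for P14 minus P7, 5 lower for P35 minus P14 and 1 higher for each of 10W minus P35, NBH 4W and ABH 1W.

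The median of the members less that of all genes was 0.11 for P14 minus P7, 0.01 for P35 minus P14, -0.03 for 10W minus P35, -0.02 in NBH 1W, 0.01 in NBH 4W, 0.05 in ABH 1W and 0.07 in ABH 4W. With 1 dye it ran from 0.07 to 0.13, -0.03 to 0.02, -0.07 to -0.04, -0.02 to 0.00, 0.01 to 0.02, 0.02 to 0.06 and 0.02 to 0.14 in that order. It moved by more than the spread of the dyes as follows. For P14 minus P7 it was 0.15 with processed signals, the deposited values and Cy3 alone with probes unsaturated on its arrays, 0.20 with quantile normalization and 0.05 with no background filter. For P35 minus P14 it was -0.04 with processed signals and the deposited values, 0.04 with quantile normalization, -0.07 with those Cy3 probes and -0.04 with probes unsaturated on the 4 arrays compared. For 10W minus P35 it was 0.00 with processed signals and the deposited values and with quantile normalization, and -0.06 with no filter, with those Cy3 probes and over members away from the ceiling. In NBH 1W it was 0.00 with processed signals and the deposited values, -0.01 with the mean of all probes and with probes unsaturated on the 4 arrays, -0.05 with no filter and with those Cy3 probes and -0.07 away from the ceiling. In NBH 4W it was 0.04 with processed signals, the deposited values and the 10W control, 0.03 with both of those probe choices, -0.02 with quantile normalization and away from the ceiling, 0.00 with an offset of 0 and -0.01 with no filter. In ABH 1W it was 0.02 with quantile normalization, 0.00 against the P35 control and 0.07 away from the ceiling. In ABH 4W it was 0.16 with those Cy3 probes and -0.03 away from the ceiling. The causes were not tested. Brightness limits the depth of the data: 25 members have no unsaturated probe, 18 of the others come within 1 log2 unit of the ceiling, and Cox8b at P7 has only a bound.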
